A study of Mus musculus with 12 samples.

Results

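The genes described here are Selenbp1, Selenbp2, Mpp2, Kctd11 and Asb11, 5 of the 27487 genes measured by RNA-seq in BV2 cells, an immortalised mouse microglial line. They were chosen by name with the results of Neu against CTR known, as genes high in BV2 cells cultured with neutrophils. In the Neu+NETS group, BV2 cells shared the culture with primary mouse neutrophils treated with phorbol 12-myristate 13-acetate (PMA), a protein kinase C activator that makes neutrophils release extracellular traps of DNA and granule proteins (NETs). In the Neu group the neutrophils had no PMA, and in the CTR group BV2 cells grew alone. Each group had 4 libraries of polyadenylated RNA, and the 3 groups shared the BV2 line. The labels also name retina as the tissue. Neither the age, strain or sex of the neutrophil donors nor whether neutrophils or PMA were removed before RNA was taken is given in the sources used here. No label says that the replicates came from separate cultures, so the tests measure the spread between these libraries.

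The genes belong to different systems. SELENBP1 is a cytosolic protein that binds selenium and oxidises methanethiol, a sulfur gas, and in humans its loss causes bad breath of blood-borne origin. It is not a selenoprotein, because it carries no selenocysteine. Selenbp2 is a near-identical mouse copy, first known as a liver protein that binds acetaminophen. MPP2 is a scaffold of the p55 membrane-associated guanylate kinase family found at synapses and cell junctions. KCTD11 is a substrate adaptor of cullin 3 ubiquitin ligases that restrains Hedgehog signalling through the turnover of HDAC1. ASB11 is a substrate receptor of cullin 5 ubiquitin ligases, studied for Notch signalling in zebrafish and for degradation of the cell death protein BIK in human cells.

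Selenbp1 and Selenbp2 lie on the plus strand of chromosome 3 in the deposited GRCm39 coordinates, at chr3:94840367-94852069 and chr3:94600863-94611720, and 228646 bases separate them. Their coding sequences have 1419 bases each and differ at 18 positions, an identity of 98.7%. The longest identical run was 193 bases. The stretch below is the one of 90 bases where the coding sequences differ most, at 4 positions in exon 5, and is shown because reads over it can tell the copies apart. It covers coding bases 361 to 450, plus strand, at chr3:94937955-94938044 for Selenbp1 and chr3:94698043-94698132 for Selenbp2 in the GRCm38 reference. Capitals mark the differing bases.
Selenbp1 coding: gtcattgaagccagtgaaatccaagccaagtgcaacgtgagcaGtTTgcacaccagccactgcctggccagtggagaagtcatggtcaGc
Selenbp2 coding: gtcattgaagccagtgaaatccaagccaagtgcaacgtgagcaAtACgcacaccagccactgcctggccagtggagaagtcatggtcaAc
Of all windows of 100 bases along the Selenbp1 transcript, 21.3% also occurred in the Selenbp2 transcript, and at 50 bases 52.2% did. No such window of Mpp2, Kctd11 or Asb11 was shared with another gene. Neither the read length nor how the authors' counting split shared reads is given in the sources, so the division of counts between Selenbp1 and Selenbp2 is uncertain.

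The copies also resemble each other upstream. The 250 bases before the start of each gene were 85.1% identical in an alignment of 262 columns. The upstream sequences from RefSeq (GRCm38.p6) are shown for the 4 of 6 member windows that held ACGTG, and were chosen for that match, at chr3:94932833-94933082 (plus strand) for Selenbp1, chr3:94693323-94693572 (plus strand) for Selenbp2, chr11:102088516-102088765 (minus strand) for 1 of the Mpp2 starts and chrX:164436744-164436993 (plus strand) for Asb11. The windows of Kctd11 and of the other Mpp2 start held neither ACGTG nor GCGTG and are not shown. Capitals mark ACGTG or GCGTG, the core letters of hypoxia response elements, on either strand.
Selenbp1 upstream: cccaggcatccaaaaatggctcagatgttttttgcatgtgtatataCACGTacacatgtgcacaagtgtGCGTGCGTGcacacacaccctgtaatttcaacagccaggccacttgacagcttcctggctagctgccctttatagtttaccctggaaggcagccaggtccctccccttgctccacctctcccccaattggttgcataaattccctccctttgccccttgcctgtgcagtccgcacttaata
Selenbp2 upstream: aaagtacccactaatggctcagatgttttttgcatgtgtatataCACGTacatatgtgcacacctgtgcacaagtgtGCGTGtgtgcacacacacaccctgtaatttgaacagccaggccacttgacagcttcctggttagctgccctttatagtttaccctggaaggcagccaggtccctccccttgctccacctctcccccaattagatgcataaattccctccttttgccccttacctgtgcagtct
Mpp2 upstream: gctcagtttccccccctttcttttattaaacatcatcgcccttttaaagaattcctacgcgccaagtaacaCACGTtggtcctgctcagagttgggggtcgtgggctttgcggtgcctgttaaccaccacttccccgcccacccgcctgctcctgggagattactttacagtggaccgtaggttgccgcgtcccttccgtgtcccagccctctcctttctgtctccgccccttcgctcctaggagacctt
Asb11 upstream: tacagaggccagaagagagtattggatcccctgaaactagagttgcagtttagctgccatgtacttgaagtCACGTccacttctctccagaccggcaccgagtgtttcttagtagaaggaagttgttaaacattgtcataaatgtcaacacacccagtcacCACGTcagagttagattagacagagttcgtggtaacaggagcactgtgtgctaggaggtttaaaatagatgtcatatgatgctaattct
ACGTG or its reverse complement occurred at -204 in Selenbp1, -206 in Selenbp2, -179 in Mpp2 and -179 and -89 in Asb11, counted from the start of transcription. Among 32851 promoter windows of the same length, 16.6% held it. GCGTG occurred in the windows of Selenbp1 and Selenbp2, and in 28.2% of all windows. TGANTCA, the AP-1 motif, occurred in the Kctd11 window at -167 and in 6.75% of all windows. An NF-kappaB motif occurred in 2 member windows, those of Selenbp1 and Selenbp2, and in 45.8% of all. TGACGT, the core of cyclic AMP response elements, occurred at -88 in Asb11, overlapping the ACGTG match, and in 6.47% of all windows. Neither TGACNNNGC, an antioxidant response element (10.2% of all windows), nor TGATGNAAN, a C/EBP-ATF motif (3.44%), occurred in a member window. Both strands were searched, and a match describes letters and no binding.

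Library totals ran from 53512190 to 68316549 estimated counts, and 16387 genes, all 5 members included, passed the filter on low counts. Selenbp2 passed through the Neu libraries. A sequenced fragment appears to stand for about 4 count units, so totals overstate depth. Neu replicate 4 differed more from the other Neu libraries than they did among themselves. Chi-square values of its counts against theirs, divided by the degrees of freedom, were 4.44 to 4.79. Those others gave 1.96 to 2.20 among themselves. Pairs of libraries gave 3.00 to 3.61 within Neu+NETS and 2.86 to 3.96 within CTR. Replicate 4 thus lay above these ranges, and the other Neu libraries lay below them. Levels are given in FPKM, fragment numbers corrected for the length of the transcript and the size of the library. In bulk RNA, fewer cells of a type and less RNA per cell cannot be told apart.

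Selenbp1 had 3.44, 3.82, 3.24 and 3.28 FPKM in the Neu+NETS libraries, 235, 235, 235 and 255 FPKM in Neu and 4.81, 4.93, 5.83 and 6.29 FPKM in CTR. The Neu libraries stood far above all others, and the Neu+NETS range lay wholly below the CTR range. Selenbp1 ranked 158 of 16387 genes by level in Neu, 8558 in Neu+NETS and 7136 in CTR. Selenbp2 was listed at 0 FPKM in all 4 Neu+NETS libraries, at 5.82, 4.35, 5.58 and 5.82 FPKM in Neu, and at 0.323, 0.151, 0 and 0.229 FPKM in CTR. It followed the same order at a far lower level, and its Neu+NETS and CTR values met at 0. Summed over 4 libraries, Selenbp2 had 0 estimated counts in Neu+NETS, 3425 in Neu and 99 in CTR. Against a floor of 12 units (3 fragments) over the Neu+NETS group, that is at least 281-fold lower in Neu+NETS than in Neu. Against CTR the bound was at least 8.98-fold lower. The floor covers counting error only, and neither bound covers the uncertain division of counts between Selenbp1 and Selenbp2. Selenbp2 made up 0% of the counts of the pair in Neu+NETS, 1.81% to 2.42% in Neu and 0% to 6.35% in CTR.

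Mpp2 had 0.244, 0.509, 0.570 and 0.412 FPKM in Neu+NETS, 11.5, 12.5, 12.1 and 12.9 FPKM in Neu, and 0.554, 0.416, 0.639 and 0.385 FPKM in CTR. Its Neu+NETS and CTR ranges overlapped, with Neu apart from both. Kctd11 had 1.16, 1.301, 1.34 and 1.28 FPKM in Neu+NETS, 6.88, 6.998, 6.99 and 8.60 FPKM in Neu, and 0.641, 0.771, 0.606 and 0.4997 FPKM in CTR. The 3 groups were separate, with Neu+NETS between Neu and CTR. Asb11 had 0.670, 0.547, 0.575 and 0.889 FPKM in Neu+NETS, 10.5, 10.01, 9.49 and 10.8 FPKM in Neu, and 6.09, 5.55, 6.06 and 5.50 FPKM in CTR. Asb11 ranked 6933 of 16387 genes by level in BV2 cells alone, near Selenbp1 at 7136, and its low group was Neu+NETS.

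**Figure D1:**
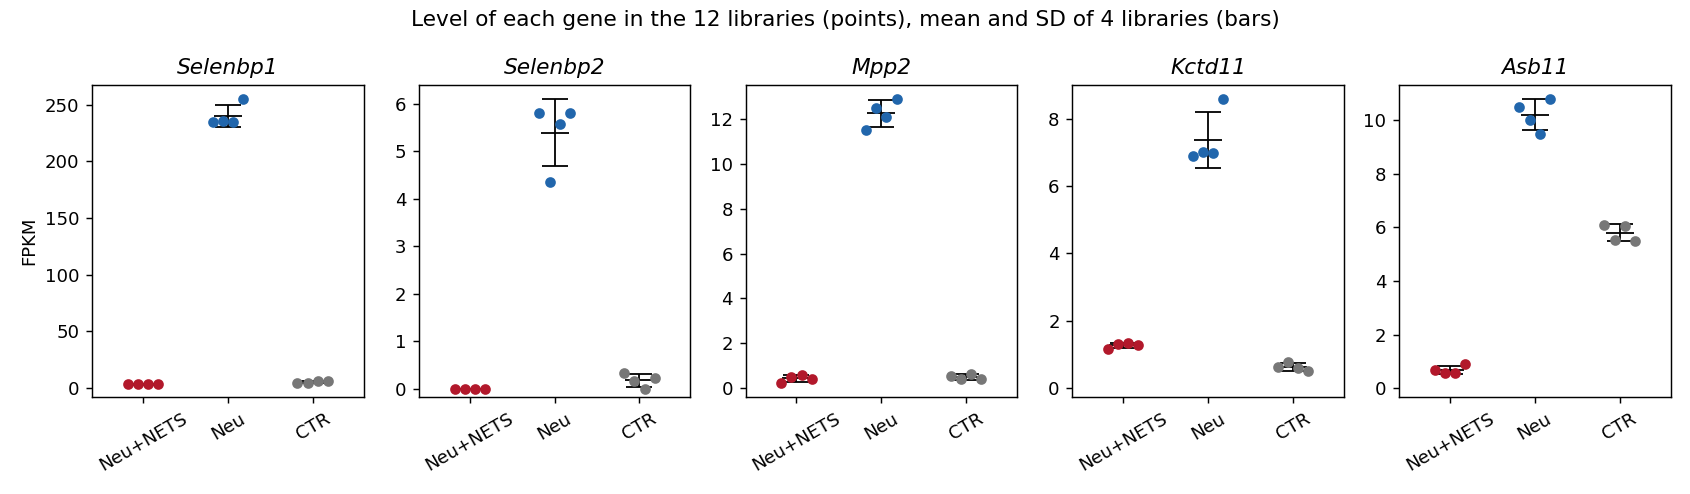
FPKM of each gene (vertical axis, a separate linear scale per gene) in every library of Neu+NETS, Neu and CTR, with bars for the mean and SD of 4 libraries. Selenbp1 averaged 3.45 FPKM in Neu+NETS, 240 FPKM in Neu and 5.47 FPKM in CTR, while Asb11 averaged 0.671, 10.2 and 5.80 FPKM in the same order.

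Neu against CTR is the comparison the genes were chosen on, so its values are a description without a test. Fitted log2 fold changes (edgeR) were 5.51 ± 0.0706 (SE) for Selenbp1, 4.66 ± 0.183 for Mpp2, 3.58 ± 0.126 for Kctd11 and 0.87 ± 0.0998 for Asb11. On a linear scale Selenbp1 was 45.7-fold higher in Neu, Mpp2 25.4-fold, Kctd11 12.0-fold and Asb11 1.83-fold. Selenbp1 ranked 29 of 16387 genes by this fold change, Mpp2 42 and Kctd11 89, whereas Asb11 ranked 1961. The description of the genes as strongly induced by neutrophils therefore does not hold for Asb11. The Neu range lay above the CTR range for Selenbp1, Mpp2, Kctd11 and Asb11, as it did for 22.5% of all genes tested. Without Neu replicate 4 the log2 fold changes were 5.49 for Selenbp1, 4.65 for Mpp2, 3.51 for Kctd11 and 0.85 for Asb11.

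With PMA-treated neutrophils the genes parted. This comparison of Neu+NETS with CTR shares the CTR libraries with the one the genes were chosen on. Earlier results of these data were known when the genes were chosen, so the members' p-values below are not independent of that choice. Asb11 fell 8.91-fold in Neu+NETS, with means of 0.671 ± 0.155 FPKM in Neu+NETS and 5.80 ± 0.318 FPKM in CTR (SD, n = 4 each). Its log2 fold change was -3.16 ± 0.116 (SE), with an adjusted p of 1.2e-12 (edgeR quasi-likelihood test, Benjamini-Hochberg over all genes), and it ranked 145 from the lowest of 16387. Selenbp1 fell 1.64-fold, to a mean of 3.45 ± 0.267 FPKM in Neu+NETS, against 5.47 ± 0.716 FPKM in CTR (log2 fold change -0.71 ± 0.0744, adjusted p = 5.8e-07 by edgeR). Kctd11 rose 1.93-fold, to 1.27 ± 0.0775 FPKM in Neu+NETS, against 0.629 ± 0.112 FPKM in CTR (log2 fold change 0.94 ± 0.123, adjusted p = 7.0e-06 by edgeR). Mpp2 averaged 0.434 ± 0.142 FPKM in Neu+NETS and 0.499 ± 0.119 FPKM in CTR and did not pass the test (log2 fold change -0.25 ± 0.196, adjusted p = 0.343 by edgeR). Of the 4 genes tested this way, 2 fell and 1 rose, where 23.7% of all genes tested fell and 21.6% rose. The Neu+NETS range lay below the CTR range for Selenbp1 and Asb11, as for 18.4% of all genes, and above it for Kctd11, as for 23.7%. Selenbp2 is given by its levels alone.

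Neu+NETS against Neu shares the Neu libraries that chose the genes and is given without a p. The levels were 74.7-fold lower in Neu+NETS for Selenbp1 (log2 fold change -6.22 ± 0.0738), 30.1-fold lower for Mpp2 (-4.91 ± 0.185), 16.3-fold lower for Asb11 (-4.03 ± 0.118) and 6.23-fold lower for Kctd11 (-2.64 ± 0.118). The Neu+NETS range lay below the Neu range for Selenbp1, Mpp2, Kctd11 and Asb11, as for 26.9% of all genes tested. Without Neu replicate 4 these log2 fold changes were -6.21 for Selenbp1, -4.90 for Mpp2, -4.01 for Asb11 and -2.57 for Kctd11.

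**Figure D2:**
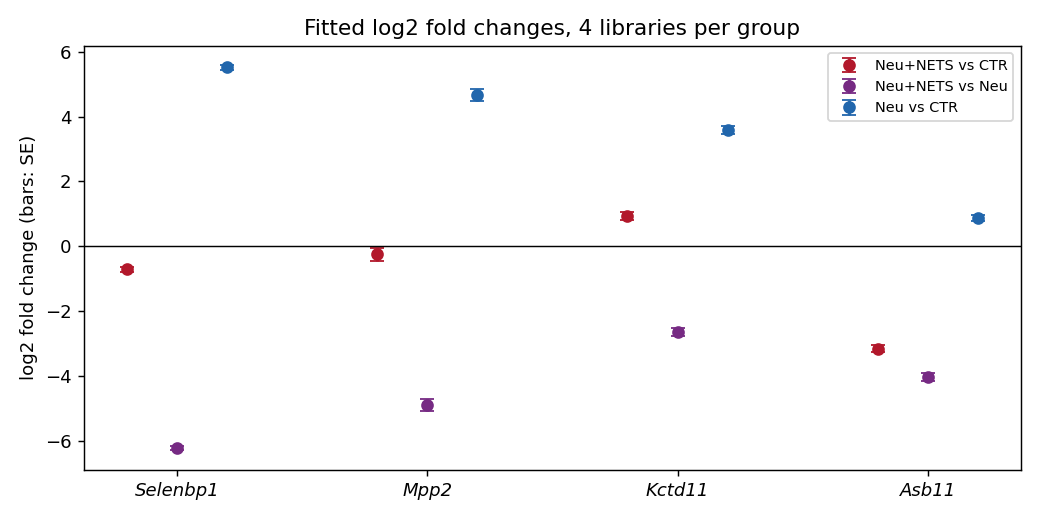
Fitted log2 fold change (vertical axis, bars SE) of 4 genes in Neu+NETS vs CTR, Neu+NETS vs Neu and Neu vs CTR, each from 4 libraries per group. Selenbp1, Mpp2 and Kctd11 are near or below 1 in Neu+NETS vs CTR and above 3 in Neu vs CTR, while Asb11 stands at -3.16 and 0.87.

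A level in Neu at least 8-fold above both other groups was seen in 68 of 16387 genes (0.415%), and a level at least 4-fold above both in 226 (1.38%). The ladder of Asb11, at least 1.5-fold higher in Neu than in CTR and at least 4-fold lower in Neu+NETS than in CTR, was seen in 151 genes (0.921%). Separate ranges with Neu highest and Neu+NETS lowest, as Selenbp1 and Asb11 had, were seen in 921 genes (5.62%). These shares describe how common each pattern was and use the fold changes that chose the genes.

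Among 7610 genes with at least 5 FPKM in their highest group, those whose profile over the 12 libraries was most like Selenbp1 were Vim, Scd2, Hk2, Galnt6, Ggta1, Lilrb4a, Fam117b and Lpin1. Vim encodes the intermediate filament vimentin and had a Pearson r of 0.999 with Selenbp1 on log2 CPM, Scd2 encodes a fatty acid desaturase, Hk2 encodes a hexokinase of glycolysis and Lpin1 a phosphatidate phosphatase. The likeness is of shape and not of size: Vim was 2.67-fold, Scd2 3.25-fold and Lpin1 3.37-fold higher in Neu than in CTR, far below the 45.7-fold of Selenbp1. The closest profiles to Mpp2 were those of Rnf19a (r = 0.995), Lilrb4b, Vcl, Nlgn2, Iqgap1, Uaca, Mxi1 and P4hb. Among the closest to Kctd11 were Afg3l2, Stk25, Mt1, Pcyox1, Cdkn1a, Foxo1 and Pfkp, of which the cell cycle inhibitor gene Cdkn1a was 7.50-fold higher in Neu than in CTR. The closest to Asb11 were Themis2 (r = 0.997), Apoe, Wsb2, Rasgrp3, Trim29, Igsf6, Psap and C3, and among the closest to Selenbp2 were Fam50a, Stxbp3, Clybl, Glmp, Pxmp4, Klf2 and Etv1. Between members, r was 0.988 for Selenbp1 with Mpp2, 0.927 with Kctd11, 0.922 with Selenbp2 and 0.736 with Asb11, and 0.449 for Kctd11 with Asb11. With 3 groups in 12 libraries, r reflects mainly the group means, and no p is given.

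Kctd11 lies on the minus strand at chr11:69769087-69772232 (GRCm39), and Acap1, which encodes a GTPase-activating protein for ARF6, ends 160 bases before its start on the same strand. Acap1 averaged 4.55 ± 0.284 FPKM in Neu+NETS, 27.6 ± 1.24 FPKM in Neu and 3.29 ± 0.257 FPKM in CTR (SD, n = 4 each). It rose in Neu+NETS over CTR (log2 fold change 0.42, adjusted p = 1.1e-05) and in Neu over CTR (3.12, adjusted p = 1.3e-16, both by edgeR), the same directions as Kctd11. The level of Kctd11 was 23.8% to 30.9% of that of Acap1 in Neu+NETS, 24.9% to 29.3% in Neu and 15.2% to 24.7% in CTR. The part of Acap1 reads in the Kctd11 values was not tested.

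Mpp2 lies on the minus strand at chr11:101947841-101979341 (GRCm39). Its neighbour Cd300lg, a CD300-family receptor gene 1394 bases away on the other strand, averaged 2.27 ± 0.109 FPKM in Neu+NETS, 13.5 ± 0.606 FPKM in Neu and 7.90 ± 0.544 FPKM in CTR. It fell in Neu+NETS (log2 fold change -1.85, adjusted p = 9.9e-13) and rose in Neu (0.83, adjusted p = 5.9e-09) against CTR by edgeR. Mpp3, a relative of Mpp2 that lies 28553 bases away, averaged 0.819 ± 0.115 FPKM in Neu+NETS, 2.05 ± 0.252 FPKM in Neu and 0.747 ± 0.0455 FPKM in CTR. Near Selenbp2, BC021767 averaged 0.0528 ± 0.0647 FPKM in Neu+NETS, 2.07 ± 0.383 FPKM in Neu and 0.413 ± 0.121 FPKM in CTR. Beside Selenbp1, Rfx5, a regulator of MHC class II genes, had a log2 fold change of 0.43 in Neu against CTR (adjusted p = 1.1e-04 by edgeR). Asb11 lies at chrX:163219990-163242166 on the plus strand, 3077 bases from Piga, which makes the first step of GPI anchors. Piga rose in Neu against CTR (log2 fold change 0.64, adjusted p = 2.3e-07 by edgeR) and in Neu+NETS against CTR (0.17, adjusted p = 0.0483), where Asb11 fell. No gene of the table overlaps a member. The neighbours that fell in Neu against CTR were Psmb4 and Pogz between Selenbp2 and Selenbp1, Tmem101 near Mpp2, and Siah1b, Fancb and Gemin8 near Asb11. Their log2 fold changes were -0.17, -0.20, -0.28, -0.95, -1.52 and -0.79 in that order (adjusted p from 2.2e-11 to 0.0070 by edgeR). Of 27 neighbours in all, 8 rose and 7 fell in Neu+NETS against CTR (21.6% and 23.7% of all genes), 8 rose and 15 fell in Neu+NETS against Neu (29.4% and 33.1% of all genes), and 14 rose and 6 fell in Neu against CTR (26.1% and 27.9% of all genes).

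**Figure D3:**
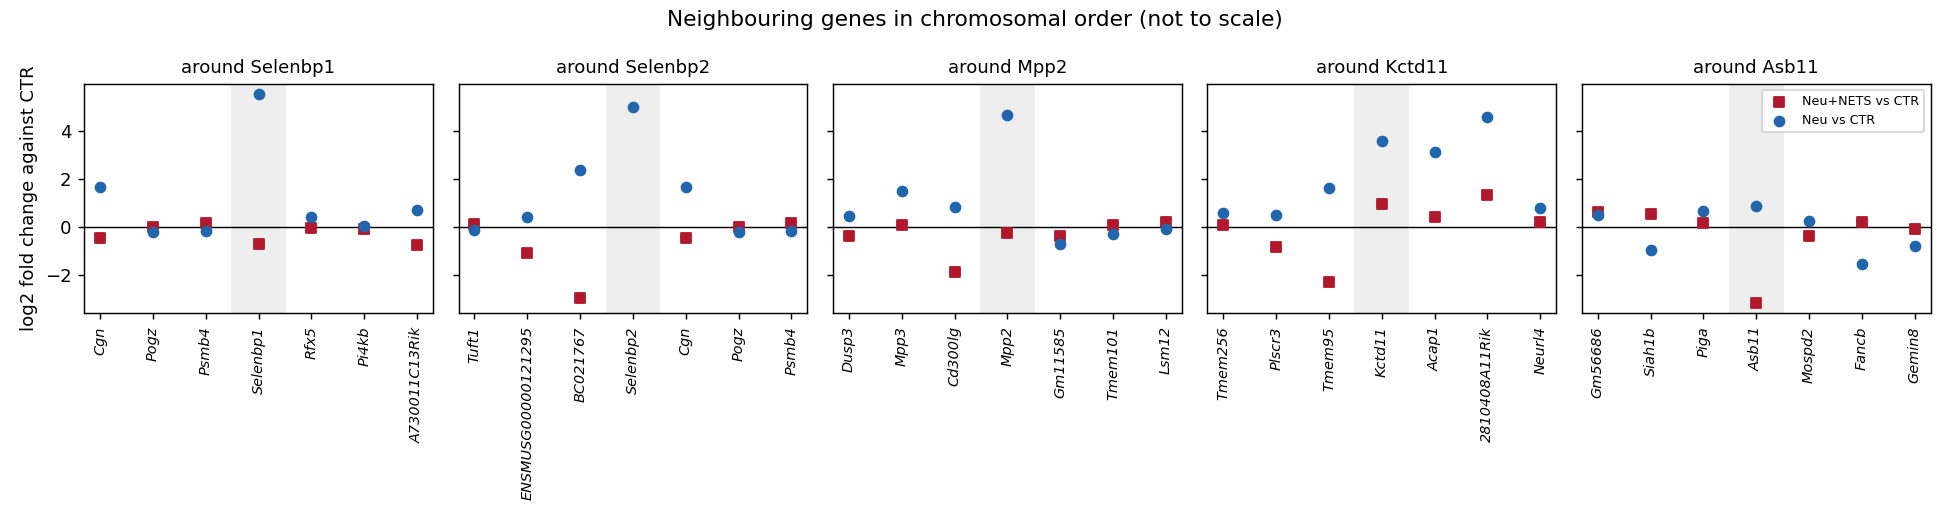
Log2 fold change (vertical axis) of the 3 nearest genes past the filter on low counts on each side of a member (shaded). Genes are in chromosomal order and not to scale, for Neu+NETS vs CTR (squares) and Neu vs CTR (circles). SEs are not drawn, and some genes are near the floor, such as Cgn (0.0483 FPKM in Neu, SE 0.935 in Neu vs CTR). Acap1 lies beside Kctd11 at 0.42 and 3.12, and Selenbp2 has no Neu+NETS point because it was listed at 0 there.

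The members' families and pathways were described through lists of their other genes. Of the sulfur amino acid and hydrogen sulfide genes, 13 of 16 were tested. In this list 4 rose and 6 fell in Neu+NETS against CTR (median log2 fold change -0.09), 4 rose and 5 fell in Neu+NETS against Neu (median -0.13), and 4 rose and 5 fell in Neu against CTR (median 0.05). Over all genes tested the medians were 0.00, -0.05 and 0.02 in those 3 comparisons, and 21.6% rose and 23.7% fell in Neu+NETS against CTR, 29.4% rose and 33.1% fell in Neu+NETS against Neu, and 26.1% rose and 27.9% fell in Neu against CTR. Mat2a, which makes S-adenosylmethionine, averaged 53.7 ± 0.575 FPKM in Neu+NETS, 19.2 ± 0.348 FPKM in Neu and 48.5 ± 1.56 FPKM in CTR, and fell in Neu against CTR (log2 fold change -1.28, adjusted p = 6.6e-16 by edgeR). Sqor, the mitochondrial enzyme that oxidises hydrogen sulfide, averaged 8.23 ± 0.311 FPKM in Neu+NETS, 16.2 ± 0.474 FPKM in Neu and 12.1 ± 0.247 FPKM in CTR. It had the order of Asb11 on a smaller scale, with a log2 fold change of -0.60 in Neu+NETS (adjusted p = 2.0e-09) and 0.47 in Neu (adjusted p = 1.8e-08) against CTR by edgeR.

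All 25 listed selenoprotein and selenium incorporation genes were tested, and 11 rose and 7 fell in Neu+NETS against CTR, where 21.6% and 23.7% of all genes did. In Neu+NETS against Neu 14 rose and 8 fell (29.4% and 33.1% of all genes), and in Neu against CTR 4 rose and 13 fell (26.1% and 27.9% of all genes). The medians of the list were 0.02, 0.24 and -0.18 in that order. Selenop, the secreted selenium carrier, averaged 9.60 ± 0.397 FPKM in Neu+NETS, 16.04 ± 0.671 FPKM in Neu and 26.8 ± 0.971 FPKM in CTR. Txnrd1, the cytosolic thioredoxin reductase, averaged 53.2 ± 0.729 FPKM in Neu+NETS, 27.3 ± 0.496 FPKM in Neu and 51.7 ± 0.673 FPKM in CTR. Both fell in Neu against CTR, where Selenbp1 was high, by log2 fold changes of -0.68 (adjusted p = 2.3e-10) and -0.87 (adjusted p = 1.9e-14, both by edgeR).

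Of the p55 scaffold genes and partners, 12 of 15 were tested, and 4 rose and 2 fell in Neu+NETS against CTR (21.6% and 23.7% of all genes), 3 rose and 6 fell in Neu+NETS against Neu (29.4% and 33.1%), and 4 rose and 3 fell in Neu against CTR (26.1% and 27.9%). Their medians were 0.12, -0.28 and 0.13 in that order. Mpp1, the erythrocyte p55 gene, averaged 14.8 ± 0.420 FPKM in Neu+NETS, 25.9 ± 0.746 FPKM in Neu and 30.1 ± 0.596 FPKM in CTR, and fell in Neu+NETS against CTR (log2 fold change -1.07, adjusted p = 1.5e-13 by edgeR). Of the KCTD genes and cullin 3, 17 of 23 were tested, and 9 rose and 4 fell in Neu+NETS against CTR, 8 rose and 6 fell in Neu+NETS against Neu, and 5 rose and 4 fell in Neu against CTR, beside the same shares of all genes. Their medians were 0.18, 0.01 and 0.02. Kctd10 had the order of Kctd11 on a smaller scale, at 18.1 ± 1.26 FPKM in Neu+NETS, 19.8 ± 0.434 FPKM in Neu and 13.8 ± 0.287 FPKM in CTR. It rose against CTR in Neu+NETS (log2 fold change 0.34, adjusted p = 1.4e-05) and in Neu (0.57, adjusted p = 1.5e-08, both by edgeR). Kctd12, an auxiliary subunit of GABA-B receptors, averaged 5.04 ± 0.190 FPKM in Neu+NETS, 8.80 ± 0.271 FPKM in Neu and 16.3 ± 0.850 FPKM in CTR, so that CTR was its highest group, where Kctd11 had its lowest level.

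The Hedgehog list also holds Hdac1 and Hdac2, which encode histone deacetylases. Of its 14 genes, 6 were tested, with 1 higher and 0 lower in Neu+NETS against CTR (21.6% and 23.7% of all genes). In Neu+NETS against Neu 1 was higher and 3 lower (29.4% and 33.1%), and in Neu against CTR 2 were higher and 1 lower (26.1% and 27.9%). Their medians were 0.05, -0.15 and 0.09 in that order. The gene higher in Neu+NETS against CTR was Hdac2 (log2 fold change 0.34, adjusted p = 1.6e-06 by edgeR). In Neu against CTR Hdac1 was higher (0.16, adjusted p = 0.0017) and Hdac2 lower (-0.18, adjusted p = 6.3e-04, both by edgeR). Ptch1, the Hedgehog receptor and a target of the pathway, averaged 5.01 ± 0.310 FPKM in Neu+NETS, 7.21 ± 0.277 FPKM in Neu and 4.50 ± 0.295 FPKM in CTR, and rose in Neu against CTR (log2 fold change 0.74, adjusted p = 5.7e-10 by edgeR). Gli1, Sufu and Kif7 did not pass in Neu against CTR (log2 fold changes 0.25, 0.02 and -0.09, adjusted p = 0.596, 0.815 and 0.536 by edgeR). Gli1 was near the floor, at 0.119 FPKM in Neu+NETS, 0.134 FPKM in Neu and 0.116 FPKM in CTR. Of the ASB genes and cullin 5 ligase parts, 16 of 22 were tested, with 4 higher and 3 lower in Neu+NETS against CTR, 5 higher and 5 lower in Neu+NETS against Neu, and 2 higher and 5 lower in Neu against CTR, beside the same shares of all genes. Their medians were 0.03, -0.10 and 0.12, the last on the other side of 0 from the balance of calls. Asb10 averaged 0.973 ± 0.184 FPKM in Neu+NETS, 1.45 ± 0.137 FPKM in Neu and 3.19 ± 0.238 FPKM in CTR, so it fell with Asb11 in Neu+NETS (log2 fold change -1.76, adjusted p = 2.2e-08 by edgeR) but was lower in Neu than in CTR as well (-1.08, adjusted p = 3.3e-06).

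**Figure D4:**
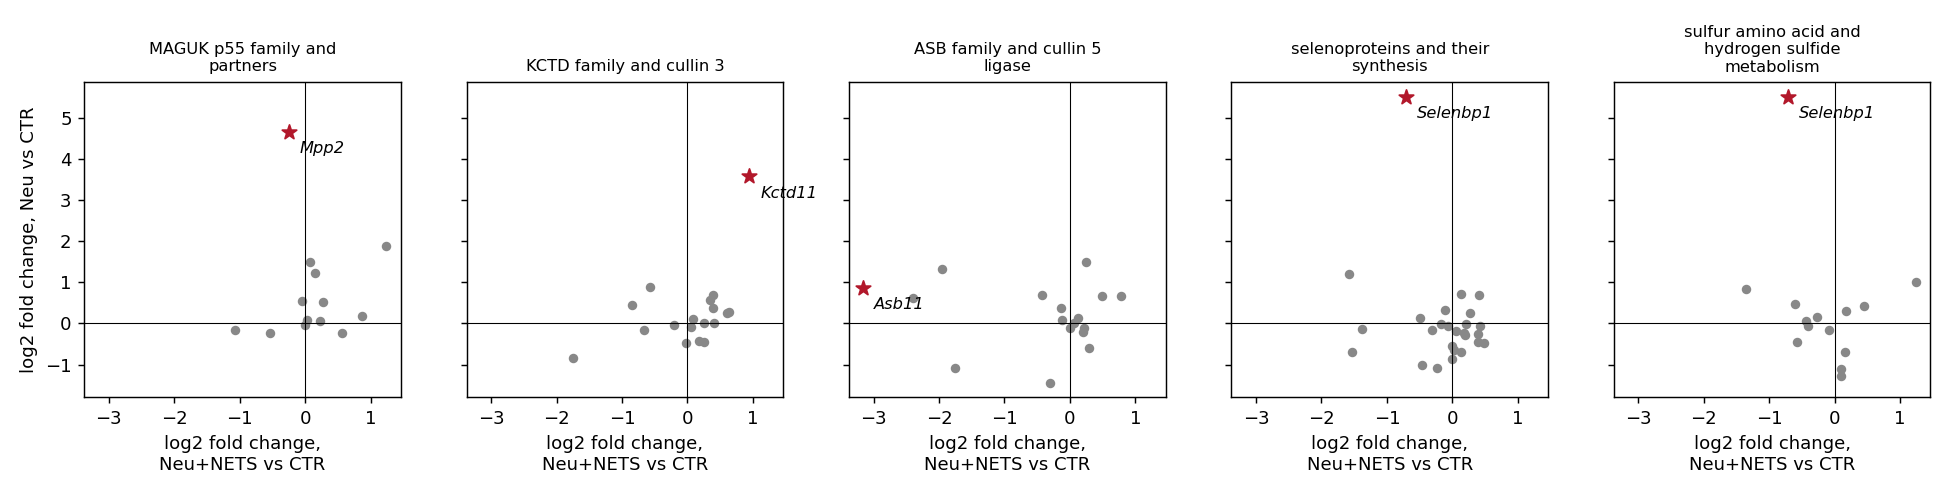
Log2 fold change in Neu+NETS vs CTR (horizontal axis) and in Neu vs CTR (vertical axis) of the tested genes of 5 lists (grey points) with the member they belong to (star). Selenbp1, Mpp2 and Kctd11 lie above all list genes on the vertical axis, at 5.51, 4.66 and 3.58, and Asb11 lies left of all list genes at -3.16.

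Of the summed cell type markers, only those of neutrophils had separate ranges in all 3 groups. The 12 neutrophil markers found in the table (of 20) summed to 0.959 to 1.43 FPKM in Neu+NETS, 14.9 to 15.8 FPKM in Neu and 6.08 to 7.40 FPKM in CTR, and 5, 0 and 1 of them were at 0 throughout those groups. The Neu sum was mostly Il1r2 and Csf3r, at 8.03 and 4.15 FPKM, and Csf3r was at 5.15 FPKM in CTR, where no neutrophil had been added. Mmp9 averaged 0.215 FPKM in Neu+NETS, 1.46 FPKM in Neu and 0.548 FPKM in CTR, Lcn2 averaged 0.0908, 0.950 and 0.223 FPKM, Prtn3 0.0462, 0.399 and 0.0645 FPKM, and Elane 0, 0.0969 and 0.0381 FPKM in the same order. Means in Neu were thus above those in CTR for these genes and Il1r2, and also for Cxcr2 and Ngp, which stayed under 0.1 FPKM on average in each group. They were below those in CTR for Csf3r, S100a8, Mpo, Mmp8 and Camp. S100a8 averaged 0.0547 FPKM in Neu+NETS, 0.189 FPKM in Neu and 0.257 FPKM in CTR, and Mpo averaged 0, 0.00219 and 0.00962 FPKM in the same order. The 7 erythroid markers in the table (of 12), listed because Selenbp1 is abundant in red cells, summed to 0.728 to 1.00 FPKM in Neu+NETS, 1.09 to 1.65 FPKM in Neu and 0.406 to 1.12 FPKM in CTR, with each under 1 FPKM in every library. All 12 microglial and macrophage markers were in the table and summed to 642 to 659 FPKM in Neu+NETS, 1064 to 1097 FPKM in Neu and 1027 to 1085 FPKM in CTR. The 5 retinal markers in the table (of 10) summed to 25.1 to 27.7 FPKM in Neu+NETS, 19.9 to 21.9 FPKM in Neu and 25.4 to 27.6 FPKM in CTR. Most of each retinal sum was Glul, which averaged 22.67 FPKM in Neu+NETS, 19.66 FPKM in Neu and 23.96 FPKM in CTR. Pou4f1 averaged 2.80, 0.533 and 1.53 FPKM and Pde6b 0.660, 0.680 and 0.807 FPKM in the same order. Opn1sw averaged 0, 0.00504 and 0.00644 FPKM and Slc1a3 0, 0.00169 and 0 FPKM. The part of the neutrophil, erythroid, microglial and retinal markers in the members' levels was not tested.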

How the data were processed

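Polyadenylated RNA of 12 libraries (CTR, Neu and Neu+NETS, 4 each) was taken from 1 table of 27487 genes. The authors deposited whole-number estimated counts and FPKM per library, per the file headers. Tools listed by the submitters' processing notes, without roles, are edgeR, StringTie 1.3.4d and HISAT2 2.0.4, with build GRCm39. The sources used here do not give the annotation release, strand setting, filters or read length. Estimated counts of 2 to 41 were multiples of 4 in 33.0% of cases, where an even spread gives 25%.

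Estimated counts were tested as deposited in 1 edgeR quasi-likelihood fit (edgeR 4.0.16, R 4.3.3, filterByExpr, TMM factors 0.970 to 1.03, 1 mean per group, all 12 libraries), two-sided, with Benjamini-Hochberg adjustment over 16387 genes and a threshold of 0.05. The common biological coefficient of variation was 12.5%. Standard errors (SE) were obtained from the F statistic, as the fold change on the log2 scale over its square root. Alternatives used limma 3.58.1 on log2(FPKM + 1) or log2(FPKM + 0.1), and DESeq2 1.42.0. The code was tested on simulated data for Neu+NETS against CTR. There edgeR recovered 72.9% of 96 genes given a log2 change of 1 and 73.2% of 97 given 2, with 5 false calls. Recovery depended on the mean count of a gene far more than on the size of its change. Nearly all genes of high count were recovered, and few of low count. A gene that did not pass the test may therefore still have changed, above all one of low count. Symbols that repeat cover 162 rows. Members and lists were chosen with earlier results of these data known. Named list genes are up to 5 per list with the smallest adjusted p and at least 1 FPKM in a group, of which a few are described. Neighbours are the 3 nearest tested genes on each side, and likeness is Pearson's r on log2 CPM (8 genes per member, of which some are not reported here). Sequences and promoters come from GRCm38 and are not converted.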

Additional observations from a re-analysis of the deposited data

Results flagged for a closer look

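Of 14 groups of 4 libraries with values to test, 3 held a library far from the other 3 relative to the range of the group, and chance alone gives about 1 in 20 groups. Selenbp1 was highest in Neu replicate 4, at 255 FPKM. Kctd11 was also highest in Neu replicate 4, at 8.60 FPKM. Over all genes this library differed more from the other Neu libraries than they did among themselves. Selenbp2 was lowest in Neu replicate 2, at 4.35 FPKM. The comparisons with and without Neu replicate 4 are given beside the members' values.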

How the results depend on the processing

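The log2 fold changes of Selenbp1, Mpp2, Kctd11 and Asb11 in Neu+NETS against CTR kept their direction and their side of the threshold under all 24 alternatives, 12 of which leave out a library. They ran from -0.76 to -0.54 for Selenbp1, -0.41 to -0.05 for Mpp2 (adjusted p 0.112 to 0.827), 0.48 to 1.06 for Kctd11 and -3.31 to -2.03 for Asb11. limma on log2(FPKM + 1) moved the share of higher calls to 57.9% from 47.6% in Neu+NETS against CTR, to 58.4% from 47.1% in Neu+NETS against Neu, and to 40.2% from 48.3% in Neu against CTR. It also shrank the folds of low genes: Mpp2 in Neu against CTR was 3.15 and Kctd11 2.36, since the added 1 FPKM is large beside their CTR levels. Deviations of same-numbered libraries from their group means correlated at -0.154 to 0.125. Differently numbered libraries were not set beside them, so this cannot decide whether the numbers mark pairs. With the replicate block, Neu+NETS against CTR gave 3491 higher and 3819 lower genes, Neu+NETS against Neu 4793 and 5415, and Neu against CTR 4270 and 4554. Selenbp1 was then -0.71, Mpp2 -0.26, Kctd11 0.95 and Asb11 -3.16. Counts at or under the floor of 3 fragments resolve no absence, which touches Selenbp2 in Neu+NETS.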
